A study of Mus musculus with 8 samples.

Results

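The genes described here are 9 mouse genes of insulin signalling and glucose uptake: Insr, Irs1, Irs2, Pik3r1, Akt2, Foxo1, Tbc1d4, Slc2a4 and Trarg1. They were taken by name, through the transcript accessions that the array design gives its probes. The choice was made with earlier results of these data known, so it is not independent of them. All 9 were measured, by 15 probes in all, among 29584 genes or unnamed features that passed the filter on dim probes, 16734 of which carry a gene symbol. The brightest probe of each of the 9 genes was well above background on all 8 arrays, so none of the 9 rested on the filter.

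The RNA came from plastic-adherent, passaged cells of the abdominal subcutaneous fat of male C57BL/6 mice, which the labels call mesenchymal stem cells. The mice were 6 weeks old when feeding began. They were fed control chow or a high-fat diet with 60% fat, which gave 4 groups of 2 arrays: C12 and HF12 after 12 weeks on chow or the high-fat diet, and C24 and HF24 after 24 weeks. The titles call the 12-week mice young and the 24-week mice old. The labels name no sort of the cells beyond adherence to plastic, and give no fat content for the chow. Nothing in them says that a group's arrays stand for different mice or dishes, so each p-value below is set against array-to-array spread alone, and that spread may be technical.

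Insulin binds its receptor, a tyrosine kinase encoded by Insr, and the receptor phosphorylates the adaptor proteins IRS1 and IRS2. These recruit phosphoinositide 3-kinase through its regulatory subunit, the product of Pik3r1, and the lipid it makes activates the kinase AKT2. AKT2 inactivates the Rab GTPase-activating protein TBC1D4 and so releases storage vesicles that carry the glucose transporter GLUT4, the product of Slc2a4, to the cell surface. AKT also keeps the transcription factor FOXO1 out of the nucleus. GLUT4 is best known in mature adipocytes and in muscle fibres, and much of this pathway acts through phosphorylation and transport of proteins, which an array of transcripts does not measure.

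The promoters of Irs1 and Irs2 are shown because both adaptor genes were lower on the high-fat diet after 12 weeks and because the core of the insulin response sequence, CAAAACA, which FOXO proteins are known to bind, was found in them. Sequences are from RefSeq (GRCm38.p6), the 250 bases before the annotated start, 5′ to 3′ on the strand of the gene. Capitals mark the motif, which lies on the opposite strand here and so reads TGTTTTG. The Irs1 promoter is chr1:82291440-82291689 and the Irs2 promoter chr8:11008930-11009179, both on the minus strand.
Irs1: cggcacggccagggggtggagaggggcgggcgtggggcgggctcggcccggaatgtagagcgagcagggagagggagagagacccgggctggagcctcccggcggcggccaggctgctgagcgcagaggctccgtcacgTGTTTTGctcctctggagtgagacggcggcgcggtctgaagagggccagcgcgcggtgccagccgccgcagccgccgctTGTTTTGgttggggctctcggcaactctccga
Irs2: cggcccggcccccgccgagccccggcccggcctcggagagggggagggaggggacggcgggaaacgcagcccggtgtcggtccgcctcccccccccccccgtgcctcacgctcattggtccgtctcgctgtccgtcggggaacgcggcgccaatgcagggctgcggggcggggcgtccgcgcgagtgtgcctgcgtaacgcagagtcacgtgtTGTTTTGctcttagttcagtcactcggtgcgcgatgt

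The motif begins 111 and 32 bases before the start of Irs1 and 37 bases before that of Irs2. All motifs were searched from 250 bases before to 50 bases after the start, a longer window than the printed one. Of 10 available promoters of Irs1, Irs2, Akt2, Pik3r1, Tbc1d4 and Foxo1, these 2 held the motif on either strand. Over all 32851 mouse promoters, searched in the same window, the share was 6.28%. The forkhead motif GTAAACA (3.65% of all promoters), the C/EBP motif TTGCGCAA (0.183%), the MEF2 motif (0.11%) and the direct repeat of PPAR and RXR (0.0396%) were in none of the 10. The matches do not overlap each other. GC content was 72.4% in the Irs1 promoter and 72.8% in that of Irs2, against a median of 52.4% over all promoters. A match is a description of the letters, and no binding was measured here.

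Levels are log2 of the processed intensity with each array's 75th percentile set to 0, so they compare arrays for 1 probe and never 1 probe with another. Arrays of the same group correlated at r = 0.995 to 0.998 over the 29584 genes and features, which are not independent replicates, while for pairs from different groups r was 0.955 to 0.985. Between 57.6% and 67.2% of probes were well above background on an array, and no spot was saturated. All arrays lay on 1 slide and were read in 1 scan. The 12-week arrays filled slide row 1 and the 24-week arrays row 2, and chow filled columns 1 and 2 and the high-fat diet columns 3 and 4, so slide position cannot be told apart from feeding time or diet. The number of arrays limits the precision. Of 12 stromal markers, 11 were well above background on all arrays, while Ly6a, a common marker of mouse stromal cells, did not pass the filter.

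The comparison of the diets at 12 weeks asks which transcripts differed after the shorter feeding. By the brightest probe of each, all 9 genes were lower on the high-fat diet, by 0.42 to 2.39 on the log2 scale. The median change was −1.0 against −0.03 over all genes and features tested. Dimmer probes did not all follow. Akt2 probes A_51_P408044 and A_55_P2066523 changed by −0.07 and 0.07 and Tbc1d4 probe A_52_P381430 by −0.36, none of them called. Slc2a4 had the greatest change of the 9, at 5.24-fold lower, and Akt2 the smallest, at 1.34-fold lower. Of all genes and features, 17.4% were called lower and 13.6% higher in this comparison, a call being an adjusted p under 0.05 from limma with Benjamini-Hochberg adjustment over all 29584. At an unadjusted p under 0.05 the count was also 0 higher and 9 lower.

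After 24 weeks the same diet comparison divided the 9 genes. Insr, Foxo1, Slc2a4 and Trarg1 were called higher on the high-fat diet, Irs1 and Tbc1d4 lower, and Irs2, Pik3r1 and Akt2 were not called, with a median of 0.04 against 0.02 over all. Background shares were 15.1% higher and 19.0% lower. The changes were small except for that of Trarg1, which was 2.50-fold higher. The count of 6 called genes fell to 3 without C24 replicate 1, to 2 without C24 replicate 2 and to 1 without either HF24 array, and to 2 when only the C24 and HF24 arrays were fitted. Trarg1 was called in each of these fits.

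The comparison of feeding times on chow shares the C12 arrays with the 12-week diet comparison. Between 12 and 24 weeks on chow, 8 of the 9 genes fell by their brightest probes and Pik3r1 was not called (limma, 0 higher at an unadjusted p under 0.05 too). The median was −1.12 against 0.02 over all. Of all genes and features, 22.2% were lower and 23.9% higher. On the high-fat diet, Slc2a4, Trarg1, Foxo1 and Pik3r1 rose between 12 and 24 weeks, Irs1 and Tbc1d4 fell, and Insr, Irs2 and Akt2 were not called. There the background was 22.5% higher and 24.4% lower. The mice were older as well as longer fed at 24 weeks, and age and feeding time cannot be told apart.

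Whether the difference between the diets changed between the times was tested as an interaction, the 24-week change minus the 12-week change. By the brightest probes it was above 0 for all 9 genes, from 0.46 for Akt2 to 2.64 for Slc2a4, and below 0 for 0 of them (limma). The median was 0.88 against −0.01 over all. At an unadjusted p under 0.05 the count was also 9 above and 0 below. Of all genes and features, 13.9% had an interaction called above 0 and 16.0% one below 0. The interaction contains the 12-week diet change, in which all 9 were lower by the brightest probes, so it is not a separate result. For Irs2, Pik3r1 and Akt2 the 24-week change was −0.21, 0.04 and 0.04, none of them called. Their interactions of 0.90, 0.50 and 0.46 thus come mostly from the 12-week change. Pik3r1 lost its call, at an adjusted p of 0.0607 to 0.0754, under no filter on dim probes and without C12 replicate 2, HF12 replicate 1, C24 replicate 2 or either HF24 array.

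**Figure D1:**
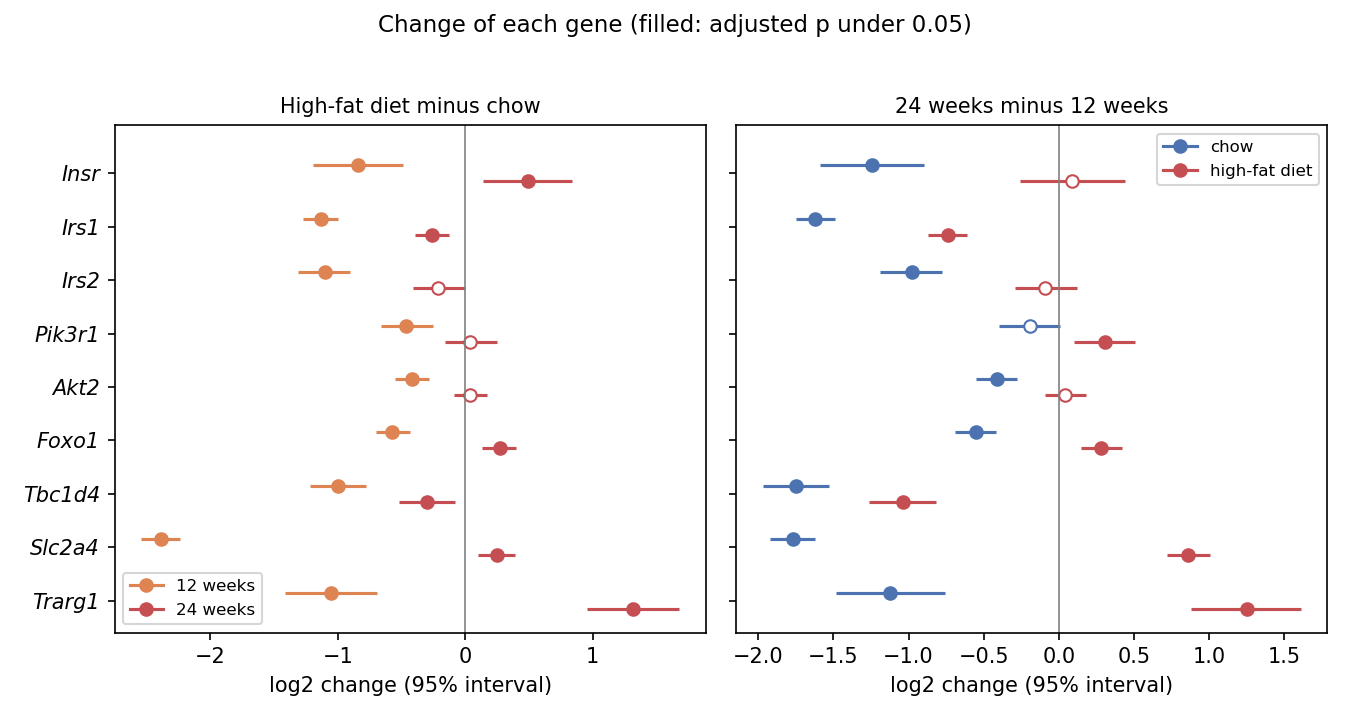
The log2 change of each of the 9 genes (rows) for high-fat diet minus chow at 12 and 24 weeks (left) and for 24 minus 12 weeks on each diet (right), with 95% intervals from limma over 8 arrays; filled points passed an adjusted p under 0.05. At 12 weeks all 9 points, each from the brightest probe of its gene, lie left of 0, from −2.39 for Slc2a4 to −0.42 for Akt2. At 24 weeks they run from −0.30 for Tbc1d4 to 1.32 for Trarg1.

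Insr encodes the insulin receptor itself. Its level (probe A_55_P2173927) was −2.04 and −1.95 on the C12 arrays, −2.83 and −2.84 on HF12, −3.45 and −3.02 on C24, and −2.81 and −2.69 on HF24. C12 stood above the other 3 groups without overlap, and the C24 arrays were the lowest and the farthest apart. It was 1.79-fold lower in HF12 than in C12 (−0.84 ± 0.14 SE, adjusted p = 0.00723), and on chow it fell 2.37-fold between the times (−1.24 ± 0.14, adjusted p = 0.00103; −0.71, still called, after normexp and quantile normalization). At 24 weeks it was 1.40-fold higher on the high-fat diet (0.49 ± 0.14, adjusted p = 0.0439), a call that was lost in 10 of 17 alternative fits. It was 0.27 without C24 replicate 1 (adjusted p = 0.0891), and it was not called without either HF24 array or any one 12-week array. The other Insr probe was well above background on only 3 arrays, both C12 arrays and HF12 replicate 1. It was not well above background on any 24-week array, so its values there are only bounds and its fitted changes are not used. For the diet at 12 weeks, with 1 HF12 array measured, it was not called (−0.75 ± 0.26, adjusted p = 0.0822).

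Irs1 encodes the adaptor best known from muscle and fat. Its level (probe A_52_P175242) was 3.39 and 3.46 on the C12 arrays, 2.30 and 2.29 on HF12, 1.82 and 1.80 on C24, and 1.55 on both HF24 arrays. The 4 groups stood apart without overlap, in the order C12, HF12, C24, HF24. It was 2.20-fold lower in HF12 than in C12 (−1.13 ± 0.05, adjusted p = 3.62e-05) and 1.19-fold lower in HF24 than in C24 (−0.26 ± 0.05, adjusted p = 0.0142). The 24-week call was lost, at an adjusted p of 0.0522 to 0.0806, without any one of the 24-week arrays. Between the times it fell 3.07-fold on chow (−1.62 ± 0.05, adjusted p = 1.18e-05) and 1.67-fold on the high-fat diet (−0.74 ± 0.05, adjusted p = 0.000227).

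Irs2 encodes the second adaptor, best known from the liver and the insulin-producing cells of the pancreas. Its level (probe A_66_P102260) was 2.51 and 2.52 on C12, 1.47 and 1.36 on HF12, 1.60 and 1.47 on C24, and 1.26 and 1.40 on HF24. C12 stood alone at the top, and the order below it, C24, HF12, HF24, rests on neighbours whose ranges meet or overlap. Irs2 was 2.14-fold lower on the high-fat diet after 12 weeks (−1.10 ± 0.08, adjusted p = 0.000277) and fell 1.97-fold between the times on chow (−0.98 ± 0.08, adjusted p = 0.000333). At 24 weeks the diets differed by −0.21 (95% interval −0.41 to 0.00, adjusted p = 0.111), and within the high-fat diet the times differed by −0.09 (−0.29 to 0.12, adjusted p = 0.443).

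Pik3r1 encodes the regulatory subunit that couples phosphoinositide 3-kinase to the IRS proteins. Its level (probe A_52_P307938) was 1.26 and 1.39 on C12, 0.79 and 0.94 on HF12, 1.19 and 1.08 on C24, and 1.16 and 1.19 on HF24. HF12 lay below the other 3 groups and C12 above them, while C24 and HF24 overlapped. It was 1.37-fold lower on the high-fat diet after 12 weeks (−0.46 ± 0.08, adjusted p = 0.00961), and leaving out HF12 replicate 1 ended that call (−0.38, adjusted p = 0.0559). It rose 1.24-fold between the times on the high-fat diet (0.31 ± 0.08, adjusted p = 0.0274), which was not called without HF12 replicate 1 or either HF24 array (adjusted p = 0.087 to 0.132). On chow the times differed by −0.19 (−0.40 to 0.01, adjusted p = 0.109).

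Akt2 encodes the AKT kinase of insulin-stimulated glucose uptake, and its probes disagreed. The brightest probe, A_55_P2066518, gave 4.6 and 4.63 on C12, 4.17 and 4.23 on HF12, 4.23 and 4.18 on C24, and 4.25 and 4.24 on HF24. By that probe C12 stood above the other groups, whose arrays lay between 4.17 and 4.25. It was lower on the high-fat diet after 12 weeks (−0.42 ± 0.05, adjusted p = 0.00269) and fell between the times on chow (−0.41 ± 0.05, adjusted p = 0.0018). Of the 2 other probes, A_51_P408044 changed by −0.07 ± 0.12 for the diet at 12 weeks (adjusted p = 0.694) and A_55_P2066523 by 0.07 ± 0.08 (adjusted p = 0.533), and neither was called in any of the 5 comparisons. With the mean of the 3 probes the Akt2 calls were lost (12-week diet −0.14, adjusted p = 0.203). The lower level of Akt2 thus rests on 1 of 3 probes.

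Foxo1 encodes a transcription factor that AKT inhibits. Its level (probe A_55_P2798990) was 1.99 and 1.98 on C12, 1.41 and 1.43 on HF12, 1.47 and 1.39 on C24, and 1.70 on both HF24 arrays. C12 was highest, HF24 lay between, and HF12 and C24 overlapped at the bottom. It was 1.48-fold lower in HF12 than in C12 (−0.57 ± 0.05, adjusted p = 0.00077) and 1.20-fold higher in HF24 than in C24 (0.27 ± 0.05, adjusted p = 0.0132). The second Foxo1 probe gave −0.52 ± 0.07 and 0.34 ± 0.07 for the same comparisons, both called. The 24-week call was lost, at an adjusted p of 0.053 to 0.072, without C24 replicate 2 or either HF24 array and when only those groups were fitted. Between the times Foxo1 fell 1.47-fold on chow (−0.55 ± 0.05, adjusted p = 0.000597) and rose 1.22-fold on the high-fat diet (0.28 ± 0.05, adjusted p = 0.00826).

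**Figure D2:**
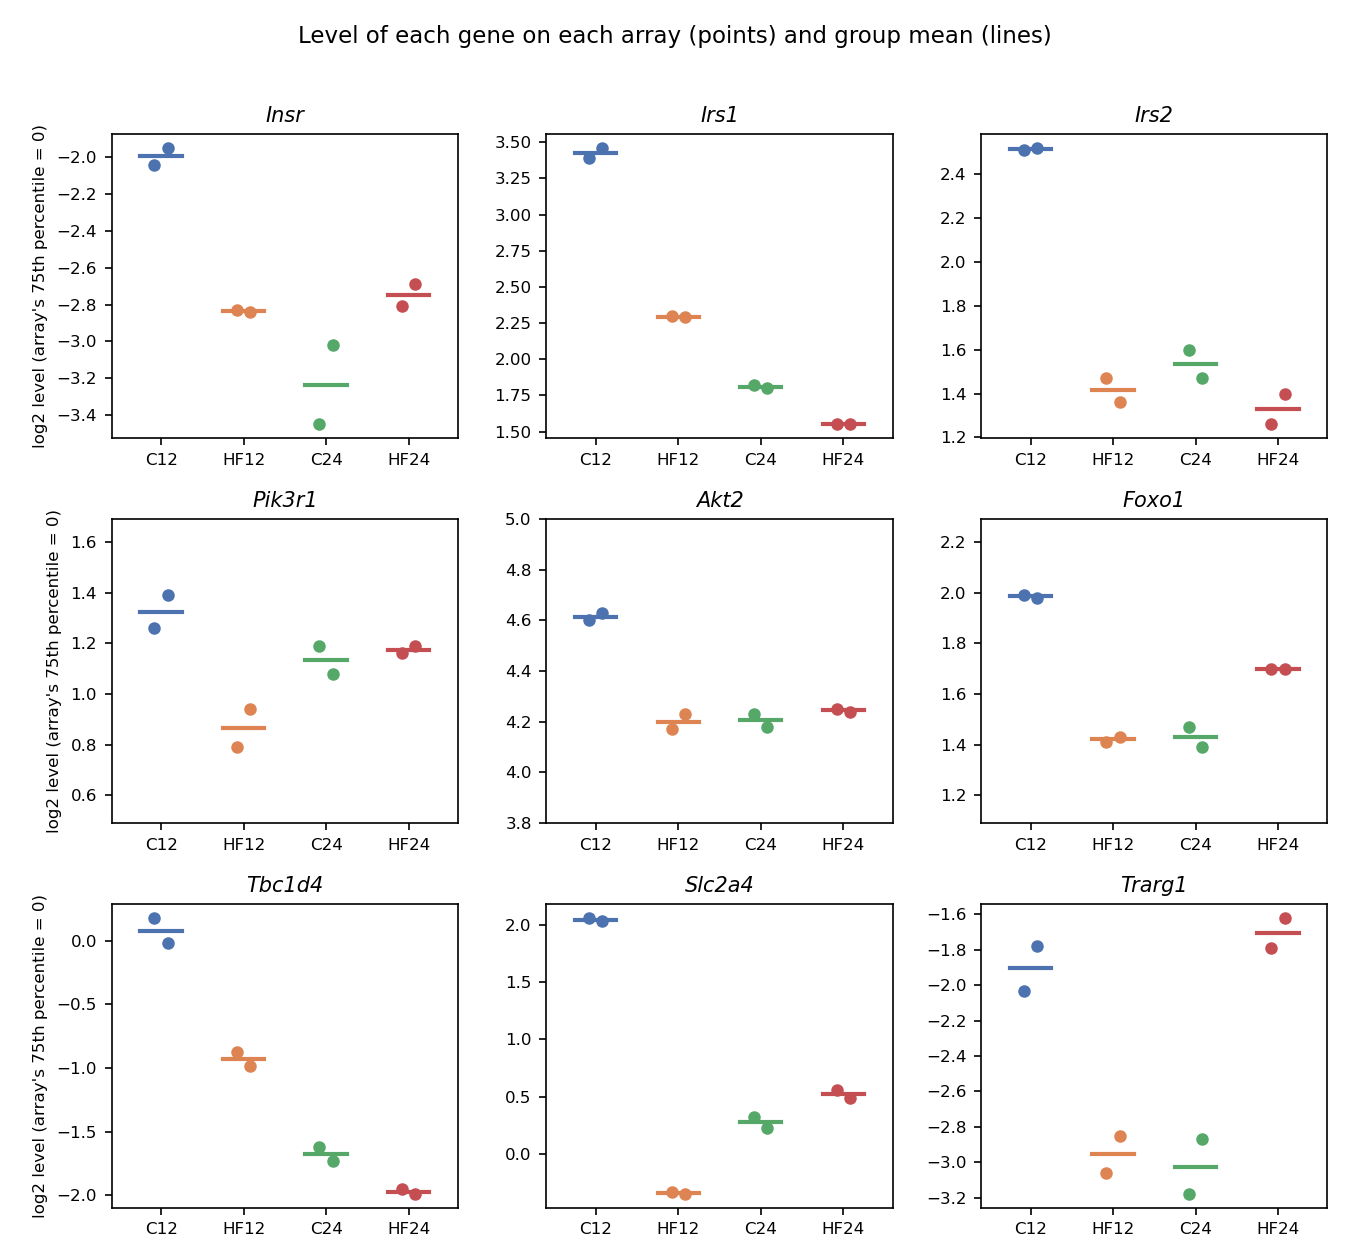
Level of the brightest probe of each of the 9 genes on the 8 arrays (points, log2 relative to the array's 75th percentile) by group, with the group mean as a line; each panel has its own scale. C12 has the highest mean in 8 panels, and in the Trarg1 panel the HF24 arrays, at −1.79 and −1.62, overlap with the C12 arrays, at −2.03 and −1.78.

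Tbc1d4 encodes the Rab GTPase-activating protein, also called AS160, that holds GLUT4 vesicles inside the cell until AKT2 acts on it. Its level (probe A_55_P2905445) was 0.18 and −0.02 on C12, −0.87 and −0.98 on HF12, −1.62 and −1.73 on C24, and −1.95 and −1.99 on HF24. The groups stood apart in the same order as for Irs1. It was 2.01-fold lower on the high-fat diet after 12 weeks (−1.0 ± 0.09, adjusted p = 0.000558) and fell 3.37-fold between the times on chow (−1.75 ± 0.09, adjusted p = 4.75e-05) and 2.06-fold on the high-fat diet (−1.04 ± 0.09, adjusted p = 0.000427). At 24 weeks the diet difference of −0.30 ± 0.09 lay at the threshold (adjusted p = 0.0496) and was lost in 12 of 17 alternative fits. They included those without either HF12 array or any one 24-week array, and normexp with quantile normalization moved it to −0.17 (adjusted p = 0.16). The 3 Tbc1d4 probes agreed on the fall on chow, at −1.66 ± 0.19 and −1.09 ± 0.22 for the other 2, both called. They did not agree on the diet at 24 weeks, where the other 2 gave 0.39 ± 0.19 (adjusted p = 0.171) and −0.91 ± 0.22 (adjusted p = 0.0257). For the diet at 12 weeks the same 2 probes gave −0.36 ± 0.19 (adjusted p = 0.204) and −0.95 ± 0.22 (adjusted p = 0.0231).

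**Figure D3:**
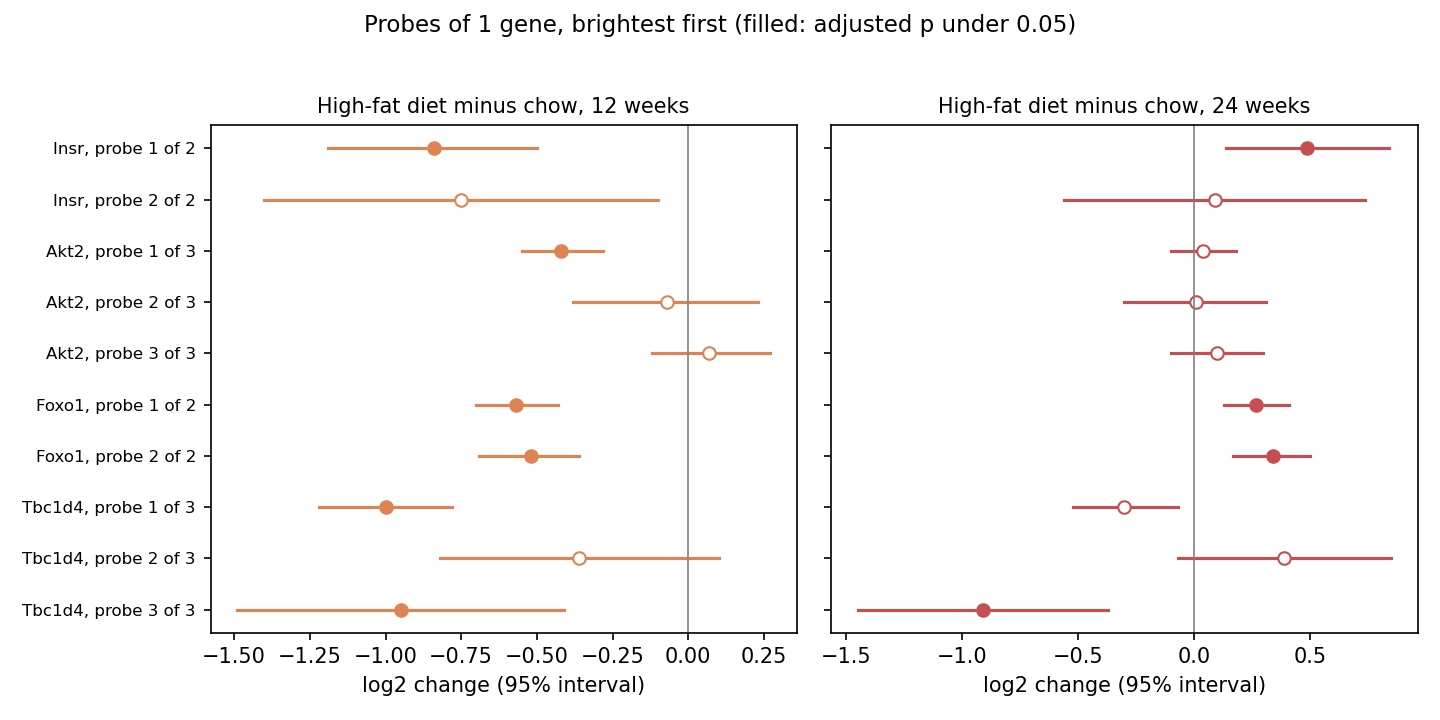
Log2 change for high-fat diet minus chow at 12 weeks (left) and 24 weeks (right) of each probe of the 4 genes that have more than 1, with 95% intervals; filled points passed an adjusted p under 0.05 over all 37649 probes kept. Both Foxo1 probes moved alike, 1 of 3 Akt2 probes was called at 12 weeks, and the Tbc1d4 probes spread from −0.91 to 0.39 at 24 weeks; the brightest one, at −0.30, had an adjusted p of 0.0534 over the probes and 0.0496 over the genes, and the second Insr probe is not well above background at 24 weeks, so its point there shows no measured change.

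Slc2a4 encodes GLUT4, the transporter that insulin brings to the cell surface. Its level (probe A_51_P217498) was 2.06 and 2.03 on C12, −0.33 and −0.35 on HF12, 0.32 and 0.23 on C24, and 0.56 and 0.49 on HF24. The groups did not overlap, and HF12 was the lowest of the 4. It was 5.24-fold lower in HF12 than in C12 (−2.39 ± 0.06, adjusted p = 3.35e-06). On chow it fell 3.41-fold between the times (−1.77 ± 0.06, adjusted p = 1.33e-05), and on the high-fat diet it rose 1.82-fold (0.86 ± 0.06, adjusted p = 0.000205). At 24 weeks it was 1.19-fold higher on the high-fat diet (0.25 ± 0.06, adjusted p = 0.0252). That last call was lost, at an adjusted p of 0.0659 to 0.139, without C24 replicate 2 or either HF24 array, without a filter on dim probes and when only those groups were fitted.

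Trarg1 encodes a membrane protein of GLUT4 vesicles that helps recycle the transporter. Its level (probe A_52_P58494) was −2.03 and −1.78 on C12, −3.06 and −2.85 on HF12, −3.18 and −2.87 on C24, and −1.79 and −1.62 on HF24. HF24 overlapped with C12 at the top, and HF12 with C24 at the bottom. It was 2.07-fold lower on the high-fat diet after 12 weeks (−1.05 ± 0.15, adjusted p = 0.0036) and 2.50-fold higher on it at 24 weeks (1.32 ± 0.15, adjusted p = 0.00148). Between the times it fell 2.17-fold on chow (−1.12 ± 0.15, adjusted p = 0.0018; −0.74, still called, after normexp and quantile normalization) and rose 2.37-fold on the high-fat diet (1.25 ± 0.15, adjusted p = 0.00139). All 4 calls held in the 17 alternative fits. Its processed intensity was low, between 107 and 293.

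By the brightest probe of each, the 9 genes thus did not share 1 order of groups, although C12 was the highest group for 8 of them. The order was not that of every probe. By Akt2 probe A_55_P2066523 C12 was the lowest group (−0.50, against −0.42 in HF12, −0.32 in C24 and −0.22 in HF24). By Tbc1d4 probe A_52_P381430 HF24 (−3.69) lay above C24 (−4.07). The orders that follow are those of the brightest probes. Irs1 and Tbc1d4 ran C12, HF12, C24, HF24. Slc2a4, Foxo1, Akt2 and Pik3r1 ran C12, HF24, C24, HF12, with C24 overlapping a neighbour for the last 3. Over the 8 arrays, which share 4 group means, Irs1 and Tbc1d4 correlated at r = 0.987, Slc2a4 and Foxo1 at 0.944, and Tbc1d4 and Trarg1 at 0.111.

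For each of the 9 genes the named genes with the most similar values over the 8 arrays were found among 16733 others by Pearson correlation, as a description with no test. Irs1 was followed most closely by Ang4 and Pcx (r = 0.9989 each) and Ang (0.9985), Pcx being the pyruvate carboxylase gene. Tbc1d4 was followed by Hlf, Gpd1 (0.997 each) and Mst1r (0.9969), and Irs2 by Cp (0.9952), Amy1 (0.9949) and Nnmt (0.9919). For Slc2a4 they were Sec14l4 (0.9965; well above background on 2 arrays alone, so its values on the other 6 have no order), the caveolar gene Cavin2 (0.9963) and Tuba8 (0.9958), and for Trarg1 Rnf8 (0.9901), Fbxo24 (0.9846) and Mrpl12 (0.9791). Foxo1 had AW112010 (0.9953) and Zadh2 (0.9939), and Akt2 had Tmem120a (0.9974), Fbxo4 (0.9968) and Sobp (0.9939). Insr had Fry (0.9962), Timm44 (0.9862) and Gbp9 (0.9848; well above background on 6 arrays), and Pik3r1 had Eif4a2 (0.971), Map4k4 (0.9685) and Dennd5b (0.9662).

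Markers of mature adipocytes also differed between the groups, and not always in the direction of these genes. The summed level of 16 such markers, in multiples of the array's 75th percentile, was 1070 to 1080 on C12, 262 to 276 on HF12, 151 to 155 on C24 and 117 to 120 on HF24. This sum adds probes of unlike brightness, so the brightest markers carry it. On C24 and HF24 those were Fabp4 (group means 5.52 and 5.67) and Lpl (6.47 and 5.59). Between C12 and C24 Fabp4 fell 6.58-fold and Lpl 1.65-fold, while Adipoq fell 581-fold and Cfd 705-fold. Of the 16 markers, 15 were lower and 0 higher in that comparison, against 22.2% lower and 23.9% higher over all genes and features. With the diet at 12 weeks 14 of the 16 were lower and 0 higher (limma; median −2.31), and at 24 weeks 8 were lower and 2 higher. All 16 were well above background on the 12-week arrays and 11 on the HF24 arrays, where Adipoq, Cfd, Cidea, Lipe and Retn were not. Between HF12 and HF24 15 of the 16 markers were lower and 0 higher (limma); Slc2a4, Trarg1, Foxo1 and Pik3r1 rose there, and Irs1 and Tbc1d4 fell. Over all genes and features 17.4% were lower and 13.6% higher with the diet at 12 weeks, and 19.0% and 15.1% at 24 weeks. Between HF12 and HF24 24.4% were lower and 22.5% higher. In such bulk samples fewer cells of a type and less RNA per cell cannot be told apart.

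Skeletal muscle markers, of the other tissue rich in GLUT4, summed to 278 to 288 on C12, 215 to 224 on HF12, 113 on both C24 arrays and 33.1 to 33.5 on HF24. At 24 weeks all 12 tested were lower on the high-fat diet, with a median of −2.09, while Slc2a4, Trarg1, Foxo1 and Insr were called higher. Macrophage markers summed to 65.3 to 66.5 on C12, 349 to 350 on HF12, 139 to 146 on C24 and 279 to 284 on HF24, and 11 of 12 were higher on the high-fat diet at 12 weeks, with 0 lower. Stromal markers summed to between 882 and 1040 in every group, but single markers moved. With the diet at 12 weeks 5 of 11 were lower and 2 higher, among them Nt5e, the gene of the surface marker CD73 (−3.30 ± 0.09), and Cd34 (−1.40 ± 0.11), and at 24 weeks 4 were lower and 1 higher. Endothelial markers rose from 11.8 to 12.8 on the 12-week arrays to 21.5 to 22.5 on C24 and 31.7 to 32.4 on HF24. Epithelial markers summed to 4.97 to 5.02 on C24 and to at most 0.518 elsewhere, Schwann cell markers to 3.96 to 18.1 and lymphocyte markers to 3.80 to 4.75. For the diet counts of these lists, the shares over all genes and features were 17.4% lower and 13.6% higher at 12 weeks. At 24 weeks they were 19.0% lower and 15.1% higher. The part of these cell types in the changes of the 9 genes was not tested.

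**Figure D4:**
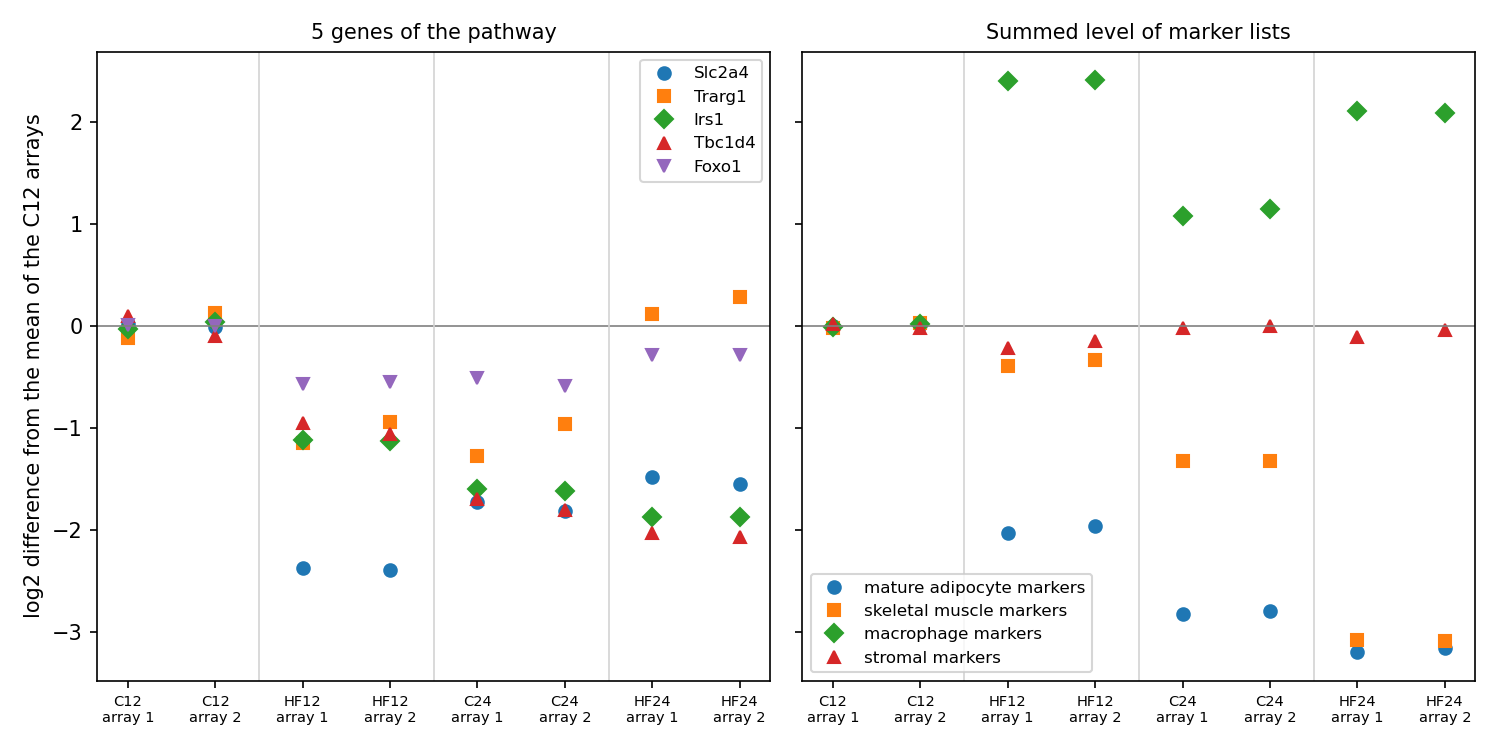
Log2 difference from the mean of the C12 arrays, on each of the 8 arrays, for 5 of the 9 genes (left) and for the summed level of 4 marker lists (right). Each sum weights the brightest markers of its list most. On the HF24 arrays Irs1 (−1.87), Tbc1d4 (−2.03 and −2.07), Slc2a4 (−1.48 and −1.56) and Foxo1 (−0.28) lie below the C12 mean. Adipocyte markers (−3.20 and −3.16), skeletal muscle markers (−3.08 and −3.10) and stromal markers (−0.11 and −0.04) do too. Trarg1 lies at 0.11 and 0.28 and macrophage markers at 2.11 and 2.08.

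Around the 9 genes, 113 of 116 other pathway genes, listed by role, were tested. On the high-fat diet 26 of them were higher and 27 lower after 12 weeks (46.9% called, against 31.0% of all genes and features), with a median of 0.01, so the calls ran in both directions. At 24 weeks 26 were higher and 14 lower (35.4%, near the 34.1% of all). On chow 33 rose and 32 fell between the times (57.5% against 46.1%), and on the high-fat diet 29 rose and 25 fell (47.8%, near the 46.8% of all). The interaction was above 0 for 21 and below 0 for 19 (35.4% against 29.9%). Counts of single lists at 12 weeks, given below, stand beside 13.6% higher and 17.4% lower over all genes and features. No list was tested as a set. The 12-week, chow and interaction counts include Pck1, which was well above background on the C12 arrays alone. The 24-week count of 40 fell to 15 and 23 without C24 replicate 1 and 2, and to 17 without either HF24 array.

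Among receptors, the insulin-like growth factor receptors Igf1r and Igf2r and the insulin receptor-related gene Insrr gave no call for the diet at 12 weeks (limma; 0 higher and 1 lower at an unadjusted p under 0.05, Igf1r at −0.17 ± 0.07; 1 call without C12 replicate 1). Igf1r rose between the times on chow (0.59 ± 0.07) and on the high-fat diet (0.66 ± 0.07). Of 11 adaptor genes, 2 were higher and 4 lower at 12 weeks. Among the lower were Irs3, an IRS gene of rodents (−1.42 ± 0.13), and the caveolin gene Cav1 (−1.18 ± 0.07). On chow Irs3 also fell between the times (−2.14 ± 0.13), as did the adaptor gene Sh2b2 (−1.13 ± 0.07), while Dok1, a docking protein gene, rose (1.36 ± 0.07).

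Of 11 kinase genes, 2 were higher and 1 lower at 12 weeks, near the 31.0% of all genes and features called. Both higher genes encode catalytic subunits of phosphoinositide 3-kinase, Pik3cd (2.20 ± 0.06), known mainly from white blood cells, and Pik3cb (1.63 ± 0.10). They went up on the arrays where Pik3r1 was lower and where the macrophage markers above were higher. Whether these changes are linked was not tested. Pik3ca, the widely expressed catalytic subunit, was lower on the high-fat diet after 24 weeks (−1.34 ± 0.21, adjusted p = 0.00514).

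Of 17 genes for negative regulators of the pathway, 7 were higher and 3 lower at 12 weeks. The phosphatase genes Ptpn1, whose product dephosphorylates the insulin receptor, and Ptprj were higher (0.78 ± 0.06 and 1.11 ± 0.09), and Socs1, a suppressor of cytokine signalling that also binds IRS proteins, was lower (−0.74 ± 0.08). Ptpn1 also rose between the times on chow (0.58 ± 0.06), where Insr, Irs1 and Irs2 fell. Grb14, which encodes an inhibitor that binds the insulin receptor, was lower on the high-fat diet after 24 weeks (−0.67 ± 0.05, adjusted p = 0.000523). Socs3 rose between the times on chow (0.69 ± 0.06) and on the high-fat diet (0.91 ± 0.06).

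Of 21 genes of GLUT4 vesicles and exocytosis, 6 were higher and 2 lower at 12 weeks, and between 4 and 8 were called when 1 array was left out, with 4 or 5 of them without C12 replicate 1 or either HF12 array. Sort1 encodes sortilin, which helps form GLUT4 vesicles. It was lower on the high-fat diet after 12 weeks (−1.03 ± 0.10) and fell between the times on chow (−2.43 ± 0.10) and on the high-fat diet (−1.50 ± 0.10), with group means of 3.23, 2.20, 0.80 and 0.70 in C12, HF12, C24 and HF24. With the mean of its probes these changes were −0.52, −1.50 and −0.96, all called. The SNARE gene Vamp8 was higher on the high-fat diet at 12 weeks (0.97 ± 0.06) and 24 weeks (0.41 ± 0.06). Tbc1d1, the close relative of Tbc1d4, rose between the times on chow (0.90 ± 0.06) and on the high-fat diet (0.52 ± 0.06), where Tbc1d4 fell.

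Of 12 other glucose transporter and hexokinase genes, 3 were higher and 3 lower at 12 weeks. Hk3, a hexokinase gene known from myeloid cells, was 7.24-fold higher (2.86 ± 0.06), and Slc2a6, a transporter gene of leukocytes, was higher too (0.70 ± 0.05). Slc2a1 encodes GLUT1, the transporter of basal glucose uptake. Its group means were 3.32, 3.44, 4.47 and 4.46 in C12, HF12, C24 and HF24, a rise of 1.02 ± 0.09 between the times on the high-fat diet, and it differed by 0.12 ± 0.09 with the diet at 12 weeks (adjusted p = 0.351). Slc2a12, an insulin-regulated transporter gene of fat and muscle, was lower on the high-fat diet after 12 weeks (−1.33 ± 0.15; −0.74, still called, after normexp and quantile normalization). At 24 weeks it was at least 1.27-fold lower, since it was not well above background on either HF24 array and its level there has only a bound, the larger on each array of its own value and the lowest signal well above background.

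Of 14 FOXO genes and FOXO targets, 4 were higher and 5 lower at 12 weeks, 5 in all without HF12 replicate 1. Klf15, a transcription factor gene of glucose metabolism, was lower on the high-fat diet (−1.51 ± 0.09), and Sesn1, a sestrin gene, was higher (1.03 ± 0.06), as it was at 24 weeks (0.44 ± 0.06). Pck1 encodes phosphoenolpyruvate carboxykinase, which insulin represses in liver and which makes glycerol for lipid storage in fat. It was well above background on the C12 arrays alone, at a mean of −4.00. Pck1 was at least 3.32-fold lower on HF12 and at least 2.10-fold lower on C24, and is counted among the 5 lower genes. Foxo6 was lower on the high-fat diet after 24 weeks (−0.81 ± 0.07; −0.52, still called, after normexp and quantile normalization) and fell between the times on chow (−1.56 ± 0.07).

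Of 11 genes of insulin's outputs in glycogen and lipid metabolism, 1 was higher and 6 lower at 12 weeks. Gpd1, the glycerol-phosphate dehydrogenase gene of lipid synthesis, was 8.47-fold lower (−3.08 ± 0.10), and Pde3b, whose product mediates the block of lipolysis by insulin, was 2.66-fold lower (−1.41 ± 0.06). Ppp1r3d, a glycogen-targeting phosphatase subunit gene, was lower too (−1.05 ± 0.06). Gpd1 and Pde3b fell between the times on chow as well (−5.28 ± 0.10 and −1.75 ± 0.06). Of 13 genes of the mTOR complexes, 1 was higher and 3 lower at 12 weeks, and between 1 and 4 were called when 1 array was left out, with fewer than 4 without any one array but C12 replicate 2. Deptor, which encodes an inhibitor of mTOR and is raised in adipogenesis, was lower on the high-fat diet after 12 weeks (−1.20 ± 0.08) and 24 weeks (−0.78 ± 0.08).

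**Figure D5:**
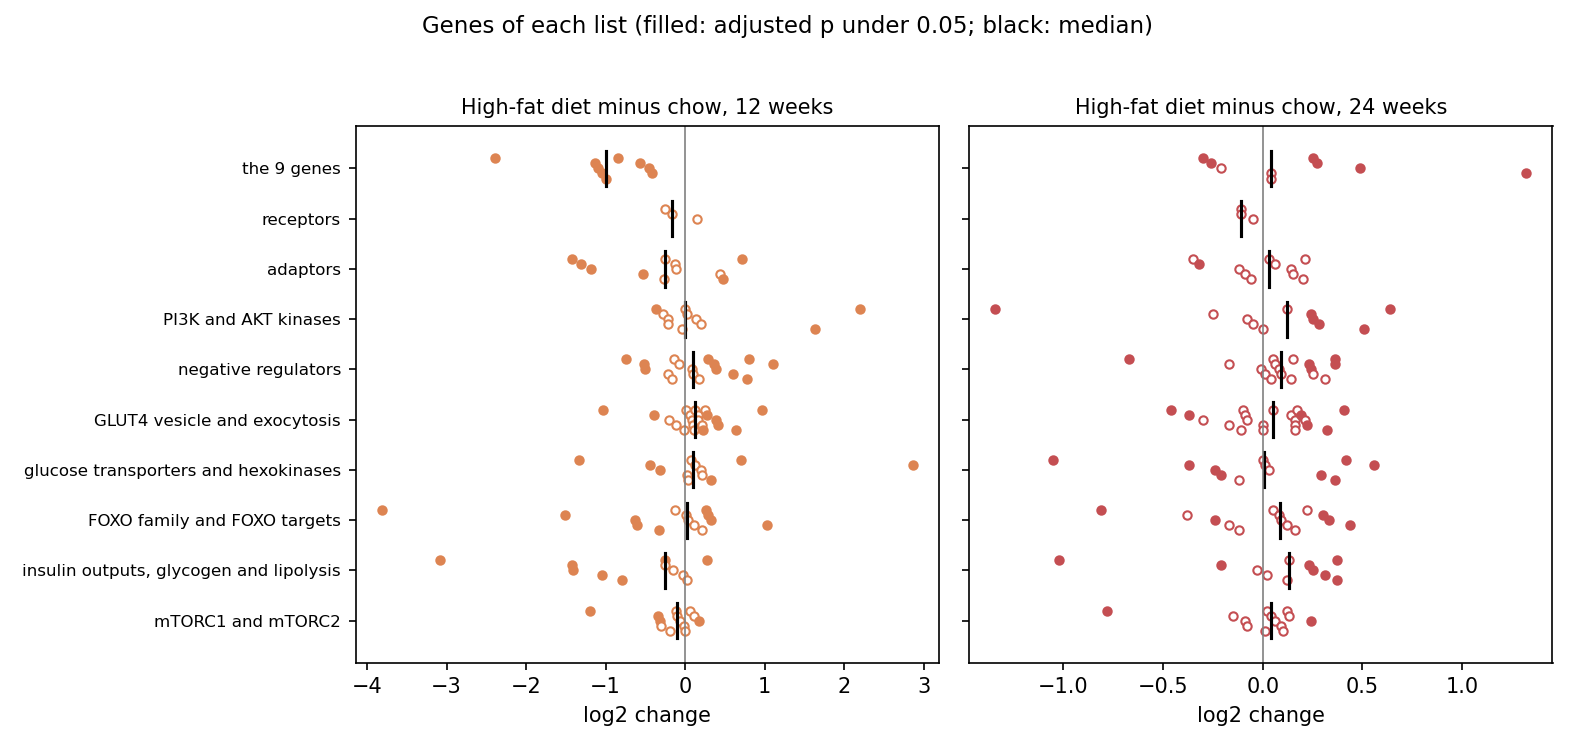
Log2 change of every tested gene of each list for high-fat diet minus chow at 12 weeks (left) and 24 weeks (right), on different scales; filled points passed an adjusted p under 0.05 from limma and black marks are list medians. The 9 genes have a median of −1.0 at 12 weeks, and the other lists have medians from −0.26 to 0.12; the lowest point there, Pck1, is not well above background on HF12, so its fitted value of −3.81 has only a bound behind it.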

How the data were processed

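Total RNA of each of 8 samples was labelled with Cy3 and hybridised to a one-colour Agilent 8x60K mouse array, read with Agilent Feature Extraction 11.0.1.1 per the submitters' processing notes. The intensity used here was deposited after background subtraction and spatial detrending within the array, per the file headers; the deposited median and background intensities are the scanner's own. The authors also deposited log2 values, which differ from log2 of that intensity by a shift of −9.99 to −9.79 that is fixed within an array; how the constant was chosen is not given in the sources used here. The headers name build mm9.

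Of 59305 spots that were not controls, covering 56605 probes, those flagged as outliers were dropped, which left 56413 probes. Levels are log2 processed intensity less the array's own 75th percentile. Probes well above background on both arrays of at least 1 group were kept (37649), and the brightest stood for its gene. The files give transcript accessions; a RefSeq table for GRCm38.p6 named 32907 probes with 1 symbol (58.3%) and left 23506 unnamed.

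limma 3.58.1 in R 4.3.3 fitted 4 group means to the 8 arrays, with 4 residual and 1.9 prior degrees of freedom, two-sided, with Benjamini-Hochberg adjustment within a comparison at 0.05. The script was tested on simulated data. The 9 genes and all lists were chosen with earlier results of these data known. Of other lists, genes named are among the 3 called with the smallest p per list and comparison; Slc2a1 and Igf1r are also given where not called, and some genes that the rules name are not reported here. The alternatives were normexp with an offset of 50 on median intensity plus quantile normalization, quantile normalization, the authors' values, no filter or a filter on all arrays, the mean of a gene's probes, a variance trend, a fit of just the groups compared, the replicate number as a block, each array left out and, added after seeing the data, each probe alone. Figures were drawn with Python 3.11.15 and matplotlib 3.10.9.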

Additional observations from a re-analysis of the deposited data

Results flagged for a closer look

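By the brightest probe of each, the diet difference of all 9 genes itself differed between 12 and 24 weeks (interaction test of limma). In each gene the 24-week change lay above the 12-week change. The difference of the changes, log2 with its standard error and adjusted p, was 2.64 ± 0.09 for Slc2a4 (adjusted p = 4.53e-05) and 2.37 ± 0.21 for Trarg1 (adjusted p = 0.000764). For the receptor and adaptor genes it was 1.33 ± 0.20 for Insr (adjusted p = 0.0052), 0.88 ± 0.08 for Irs1 (adjusted p = 0.000691) and 0.90 ± 0.12 for Irs2 (adjusted p = 0.00315). For the others it was 0.84 ± 0.08 for Foxo1 (adjusted p = 0.000903), 0.71 ± 0.13 for Tbc1d4 (adjusted p = 0.00936), 0.50 ± 0.12 for Pik3r1 (adjusted p = 0.0248) and 0.46 ± 0.08 for Akt2 (adjusted p = 0.00767). Slc2a4, Trarg1, Foxo1 and Insr were called lower with the high-fat diet at 12 weeks and higher at 24 weeks, but the 24-week call was lost in 10 of 17 alternative fits for Insr, 5 for Slc2a4 and 4 for Foxo1, and in 0 for Trarg1. By its other 2 probes the Akt2 difference was not called (0.08 ± 0.18 and 0.03 ± 0.11, adjusted p = 0.774 and 0.881). For the other 2 probes of Tbc1d4 it was 0.74 ± 0.27 (adjusted p = 0.0895) and 0.04 ± 0.31 (adjusted p = 0.942). The mature adipocyte markers had 11 of 16 interactions above 0 and 2 below, and the macrophage markers 12 of 12 below 0. Over all genes and features 13.9% of interactions were called above 0 and 16.0% below 0. The interaction shares the C12 and HF12 arrays with the 12-week diet comparison and is not independent of it. In that comparison all 9 genes were lower by their brightest probes. Slide position is shared with diet and time and cannot be told apart from them.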

How the results depend on the processing

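The 24-week diet comparison depended most on the processing. Its count of 6 called among the 9 genes was 3 with no filter on dim probes, 2 with only the groups compared, and 1 to 5 with 1 array left out; the 40 other pathway genes called were 22, 20 and 15 to 37. In the other comparisons the counts over the 9 genes stayed within 1.5 times in every alternative. With 1 array left out, an arm of 1 array is assumed to vary like the other groups. The replicate block called 9, 6, 8, 6 and 9 of the 9 genes, the same counts as without it. Deviations of same-numbered arrays from their group means correlated at −0.082 to 0.166 over genes. With 2 arrays per group and a spread that may be technical, this cannot tell whether the numbers pair the samples. Uncalled differences that changed sign were those of Akt2 between the diets at 24 weeks (−0.01 after normexp, −0.03 after quantile normalization) and between the times on the high-fat diet (−0.11 and −0.10), and of Pik3r1 between the diets at 24 weeks (−0.02 without C24 replicate 2; −0.02 to 0.10 with 1 array left out). By single probes, signs changed for Akt2 at 12 weeks (0.07), on chow (0.18) and on the high-fat diet (−0.03), for Tbc1d4 between the diets at 24 weeks (0.39) and for Insr on the high-fat diet (−0.02, from a probe not well above background there on 3 of 4 arrays), none of them called. Over all genes, 9167 calls for the diet at 12 weeks became 5398 without HF12 replicate 1, 5861 without HF12 replicate 2 and 5966 without C12 replicate 1. With no filter the median of all genes was 0.15 on chow and 0.13 on the high-fat diet between the times, and the share of calls that were higher went from 51.8% to 67.0% and from 48.0% to 65.4%. The cause was not tested. Signal over background limits Insr, Trarg1 and the dimmer Tbc1d4 probes.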
